A study of Mus musculus with 37 samples.

Results

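Neonatal rat ventricular myocytes (NRVM) were exposed for 24 hours to conditioned medium labelled ENPP1+ATP or ATP, and the transcriptomes under these media were compared directly. The comparison holds 6 of the 37 samples of the series, 3 libraries labelled ENPP1+ATP and 3 labelled ATP, taken by those labels. GEO's labels give the organism of these libraries as Mus musculus, whereas their strain is a rat strain, and they are treated here as rat. The cells were wild-type Sprague-Dawley ventricular myocytes that had been kept in serum-free medium with insulin, transferrin, and selenium before the medium was changed. All 15 NRVM libraries of the series shared this preparation, and the other 9 came from cells under vehicle, ENPP1 alone, or AMP, 3 libraries each. The labels call all 5 media conditioned medium, and the study's text on myocytes also speaks of such medium, which it made by adding ATP and recombinant ENPP1 protein to NRVM and collecting the medium 24 hours later. How much intact ATP or active ENPP1 was left when the sequenced cells met it was not measured here, and ENPP1+ATP and ATP name the media, not what they then held. Nothing in the labels says that the 3 libraries of a medium came from separate isolations or cultures, and the p-values below measure the spread between these libraries, which may be technical. The question posed by the comparison is how myocytes in medium made with ENPP1 and its substrate ATP differ from those in medium made with ATP alone.

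ENPP1 is a cell surface and soluble enzyme that cleaves extracellular ATP to AMP and pyrophosphate. AMP can be cut further to adenosine by the enzyme encoded by Nt5e, and adenosine is taken up through nucleoside transporters or sensed by adenosine receptors, while ATP itself is sensed by P2X channels and P2Y receptors. In the heart, ATP released from injured cells acts as a danger signal, and ventricular myocytes carry the contractile apparatus, the calcium cycle, and the oxidative metabolism that the gene groups below describe.

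The 15 NRVM libraries held 13481389 to 16977980 counts each, with 14590504 to 15871033 in the ATP libraries and 13980922 to 15347841 in the ENPP1+ATP libraries, so depth was similar between the media compared. Transcripts of the 13 mitochondrially encoded genes took 8.77% to 9.62% of the counts in the ATP libraries and 10.9% to 11.1% in the ENPP1+ATP libraries, against 8.14% to 8.35% under vehicle and 10.5% to 11.1% under AMP. This share did not overlap between the media compared, and its part in the results below was not tested. All 9 cardiomyocyte marker genes in the table and all 9 fibroblast marker genes had counts in all 6 libraries. Among them Tnnt2, cardiac troponin T, ranged from 4132 to 4603 CPM and Col1a1, a fibroblast collagen gene, from 5302 to 7928 CPM, so the cultures held transcripts of both lists, and the share of each cell type was not measured. In such bulk libraries, fewer cells of a type and less RNA per cell cannot be told apart.

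Between the ENPP1+ATP and ATP media, 3708 of 13461 genes tested differed. At an adjusted p under 0.05 (edgeR's quasi-likelihood test, Benjamini-Hochberg adjustment over all genes tested), 1897 genes rose, which was 14.1% of all genes tested, and 1811 fell, which was 13.5%. Most changes were small. The median absolute log2 fold change of the called genes was 0.32, 2994 of them changed by less than 1.5-fold, and 80 rose and 132 fell by at least 2-fold. The 3 ENPP1+ATP libraries all lay above the 3 ATP libraries at 2708 genes (20.1%) and all below them at 2817 genes (20.9%). With the library totals left unscaled, 4055 genes were called and 35.6% of them were higher, against 51.2% of those called with scaled totals. Leaving out 1 of the 6 libraries at a time gave 3000 calls (without ATP replicate 3) to 3383 calls (without ATP replicate 1), and leaving AMP replicate 3 out of the fit gave 3859.

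At this threshold, the ENPP1 and vehicle media, both made without ATP, differed at no gene in the main setting. Calls made without the filter on low counts are given below. Between the ENPP1 and vehicle libraries, edgeR's quasi-likelihood test called 0 of 13461 genes (0%), the smallest adjusted p was 0.411, and 693 genes (5.15%) had an unadjusted p under 0.05. DESeq2 called 1 gene in that comparison, Msln, named after its value was seen, which encodes mesothelin and had a log2 fold change of -0.48 ± 0.12 (SE) by edgeR. The epicardial and mesothelial marker list, which holds Msln, summed to 334 to 396 CPM under vehicle and 261 to 288 CPM under ENPP1. These ranges did not overlap, and edgeR called 0 of its 8 tested genes. The median absolute log2 fold change over all genes tested was 0.156 for ENPP1+ATP against ATP and 0.0661 for ENPP1 against vehicle. Among genes with a mean of at least 2 log2 CPM over the 6 ATP and ENPP1+ATP libraries, the largest absolute log2 fold change for ENPP1 against vehicle was fitted at Serpina9, named after its values were seen. Serpina9 was at 0 CPM in the 3 vehicle libraries and at 0.128, 0, and 0.144 CPM in the ENPP1 libraries, too low for a fold (adjusted p = 0.916, edgeR).

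**Figure D1:**
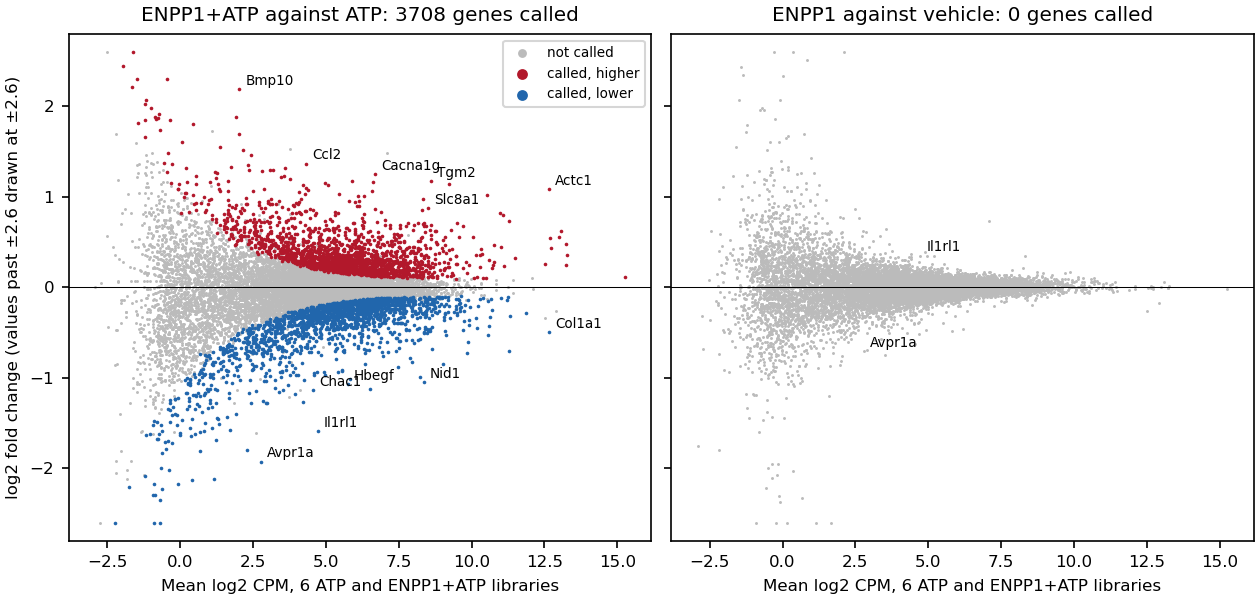
Each point is 1 of 13461 genes tested in NRVM, drawn by its mean level over the 6 ATP and ENPP1+ATP libraries (x axis, mean log2 CPM, the count in 1000000 counts of the scaled library total) and by its log2 fold change (y axis) for ENPP1+ATP against ATP on the left and ENPP1 against vehicle on the right. Called genes are red where higher and blue where lower, with 3708 on the left and 0 on the right, and the labelled genes include some chosen after their values were seen.

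The largest rises included Bmp10 and the chemokine genes Ccl2 and Ccl7. The largest rises and falls were named only among called genes whose libraries did not overlap between the media. Their lack of overlap is therefore no added support. Bmp10, a ligand of the bone morphogenetic protein family made by cardiomyocytes of the developing heart, had 1.70, 1.66, and 2.12 CPM (the count in 1000000 counts of the scaled library total) in the ATP libraries and 8.95, 9.32, and 6.85 CPM in the ENPP1+ATP libraries. Its lowest ENPP1+ATP library was above every ATP library, and it rose 4.57-fold (log2 fold change 2.19 ± 0.21 (SE), adjusted p = 4.71e-09), while the vehicle libraries stood at 31.4 ± 2.77 CPM (mean ± SD, n = 3). Ccl2, a chemokine that attracts monocytes, had 10.5, 11.6, and 14.8 CPM under ATP and 33.0, 34.3, and 27.9 CPM under ENPP1+ATP. The ranges did not overlap, and Ccl2 rose 2.58-fold (log2 fold change 1.37 ± 0.14 (SE), adjusted p = 8.51e-08). Its level was 12.4 ± 3.00 CPM under vehicle and 11.8 ± 1.30 CPM under AMP (n = 3 each), so among the 5 media the ENPP1+ATP libraries were the highest. The related chemokine gene Ccl7 was at 2.03, 2.08, and 2.44 CPM under ATP and 7.04, 6.45, and 7.69 CPM under ENPP1+ATP, again without overlap (log2 fold change 1.69 ± 0.19 (SE), adjusted p = 2.13e-09).

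Erbb4, Cacna1g, and Npr3 were also among the largest rises. Erbb4, the neuregulin receptor of cardiomyocytes, went from 5.04, 5.46, and 5.47 CPM in the ATP libraries to 12.7, 13.5, and 12.9 CPM in the ENPP1+ATP libraries (log2 fold change 1.29 ± 0.13 (SE), adjusted p = 3.46e-11). Cacna1g, which encodes a T-type calcium channel, went from 76.5, 66.9, and 59.1 CPM to 158, 171, and 153 CPM (log2 fold change 1.25 ± 0.094 (SE), adjusted p = 5.63e-07). Npr3, the clearance receptor for natriuretic peptides, went from 7.27, 7.42, and 6.56 CPM to 15.4, 17.9, and 16.1 CPM (log2 fold change 1.22 ± 0.10 (SE), adjusted p = 3.9e-13). In all 3 the libraries of the media were fully apart, as the naming rule required. Tenm4 (1.46), Gpm6a (1.52), Eda (1.36), Mbd5 (1.30), Clmp (1.29), and Pard3b (1.23) completed the annotated genes among the 15 largest called rises at a mean level of at least 2 log2 CPM, with log2 fold changes in parentheses. The ENPP1+ATP level of Erbb4 lay between ATP and vehicle, where the mean was 22.9 ± 3.00 CPM (± SD, n = 3).

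The largest falls included Avpr1a, Plvap, and Il1rl1. Il1rl1, the receptor for interleukin 33, had 42.1, 44.4, and 49.6 CPM in the ATP libraries and 14.9, 14.4, and 15.9 CPM in the ENPP1+ATP libraries. It fell in every library relative to every ATP library (log2 fold change -1.59 ± 0.10 (SE), adjusted p = 4.83e-16), and the vehicle libraries were lower than both at 2.34, 1.72, and 2.74 CPM. Avpr1a, a vasopressin receptor, went from 13.4, 12.3, and 13.7 CPM to 4.37, 2.94, and 3.10 CPM (log2 fold change -1.92 ± 0.17 (SE), adjusted p = 1.94e-12). Fosl1, a subunit of the AP-1 transcription factor, went from 10.3, 10.6, and 15.1 CPM to 4.58, 4.66, and 5.56 CPM (log2 fold change -1.28 ± 0.18 (SE), adjusted p = 3.71e-07). Neither gene had overlapping ranges, as the naming rule required. Itga11, a collagen-binding integrin (-1.27), Col11a1, a fibrillar collagen chain (-1.18), Bmp3 (-1.13), Ltbp2, of the family of latent TGF-β binding proteins (-1.12), Sgms2, a sphingomyelin synthase (-1.16), Cntn2 (-1.27), and Tlcd2 (-1.26) also fell, with log2 fold changes in parentheses. Plvap (-1.80) and Adgrf5 (-1.16), genes known from endothelial cells, fell as well. The summed level of 9 endothelial marker genes was 67.7 to 93.0 CPM in the ATP libraries and 46.4 to 52.7 CPM in the ENPP1+ATP libraries, no marker was at 0 in all 6 libraries, 1 of the 9 markers rose and 4 fell, beside 14.1% and 13.5% of all genes tested, and the part of endothelial cells in these falls was not tested.

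The 5 smallest p-values were those of Actc1, Tgm2, Nid1, Ankrd1, and Slc8a1. Actc1, the cardiac α-actin of the thin filament, was at 4654, 4141, and 4370.5 CPM under ATP and 9444, 9512, and 9036 CPM under ENPP1+ATP. It rose 2.13-fold with no overlap (log2 fold change 1.09 ± 0.038 (SE), adjusted p = 2.37e-25), and vehicle libraries were at 11191 ± 99.5 CPM (mean ± SD, n = 3). Tgm2, which encodes tissue transglutaminase, went from 272, 252, and 248 CPM to 574, 592, and 573 CPM (log2 fold change 1.17 ± 0.042 (SE), adjusted p = 2.92e-25), and Nid1, a basement membrane protein, went from 429, 491, and 504 CPM to 220.1, 237, and 231 CPM (log2 fold change -1.05 ± 0.045 (SE), adjusted p = 2.27e-22). Nid1 was thus lower in every ENPP1+ATP library than in any ATP library, and the ATP libraries were in turn below the vehicle mean of 634 ± 4.03 CPM (± SD, n = 3).

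Genes of extracellular purine handling were taken first among the gene lists, since the enzyme acts there. Of 27 tested genes for enzymes and transporters of purines and pyrophosphate outside the cell, 6 rose and 4 fell, beside 14.1% higher and 13.5% lower over all genes tested, so the falls were near that share. Their median log2 fold change was -0.087, against a median of -0.01 over all genes tested. Transcripts of the cells' own Enpp1 did not pass the test, with 53.8, 58.8, and 65.1 CPM under ATP and 53.7, 54.0, and 53.1 CPM under ENPP1+ATP (log2 fold change -0.14 ± 0.062 (SE), adjusted p = 0.0752), and were called lower with unscaled totals or without ATP replicate 1 (adjusted p = 0.0149 to 0.0152). The ranges of Enpp1 overlapped, and ENPP1 added as protein is not counted in the libraries. Adk, the adenosine kinase that turns adenosine into AMP, had 17.5, 18.5, and 17.4 CPM under ATP and 25.9, 29.2, and 25.8 CPM under ENPP1+ATP, below the vehicle mean of 53 ± 1.89 CPM (± SD, n = 3). Adk rose with no overlap (log2 fold change 0.60 ± 0.075 (SE), adjusted p = 2.13e-08). Nt5e, the enzyme that forms adenosine from AMP, went from 3.47, 4.51, and 6.11 CPM to 7.11, 6.58, and 8.53 CPM (log2 fold change 0.66 ± 0.18 (SE), adjusted p = 0.00565), a change not called without ATP replicate 1 (adjusted p = 0.0528).

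Among the other purine genes, Ada, the deaminase that turns adenosine into inosine, went from 5.83, 6.71, and 5.60 CPM to 4.16, 3.9, and 4.52 CPM (log2 fold change -0.53 ± 0.16 (SE), adjusted p = 0.0093). Ankh, a membrane protein that sets pyrophosphate outside the cell, rose (log2 fold change 0.31 ± 0.053 (SE), adjusted p = 9.46e-06), and of the phosphate transporters Slc20a2 rose (0.23) and Slc20a1 fell (-0.35, log2 fold changes). The relatives of ENPP1 went in different directions, with Enpp2 at 1.04 and Enpp3 at 0.39 higher and Enpp4 at -0.25 lower. Entpd5 fell (-0.16, adjusted p = 0.0471, edgeR). Leaving out ATP replicate 2 or ATP replicate 3 left 2 of the 4 lower genes of this list past the threshold. Ada was not called without ATP replicate 2 (adjusted p = 0.0648), and Enpp4 was not called without ATP replicate 3 (adjusted p = 0.0541). The call of Enpp2 was lost by DESeq2 or without ATP replicate 1, ATP replicate 2, ENPP1+ATP replicate 1, or ENPP1+ATP replicate 2 (adjusted p = 0.0533 to 0.232), that of Enpp3 without ATP replicate 1, ATP replicate 2, ENPP1+ATP replicate 2, or ENPP1+ATP replicate 3 (adjusted p = 0.0601 to 0.0825), and that of Entpd5 by DESeq2, without the filter on low counts, or without ATP replicate 1, ATP replicate 2, ATP replicate 3, ENPP1+ATP replicate 1, or ENPP1+ATP replicate 2 (adjusted p = 0.0651 to 0.229).

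Of the 12 tested purine and adenosine receptors, 2 fell and none rose, the falls being near the 13.5% of all genes tested, with a median log2 fold change of -0.24. P2rx5, an ATP-gated channel, had 17.6, 19.0, and 19.3 CPM under ATP and 12.8, 11.7, and 13.2 CPM under ENPP1+ATP, and the 3 lower values were all from ENPP1+ATP libraries (log2 fold change -0.57 ± 0.10 (SE), adjusted p = 2.00e-05). P2ry2, a receptor for ATP and UTP, went from 10.3, 11, and 11.6 CPM to 7.89, 9.39, and 7.88 CPM (log2 fold change -0.39 ± 0.12 (SE), adjusted p = 0.0108), and was not called without ATP replicate 3, ENPP1+ATP replicate 1, or ENPP1+ATP replicate 3 (adjusted p = 0.0521 to 0.0539). Without ATP replicate 3, ENPP1+ATP replicate 1, or ENPP1+ATP replicate 3, 1 of the 2 falls remained past the threshold, and without ENPP1+ATP replicate 3 a single receptor gene was called higher. The adenosine receptor genes did not pass the test, with log2 fold changes of -0.013 ± 0.094 for Adora1, -0.69 ± 0.45 for Adora2a, and 0.22 ± 0.70 for Adora2b (± SE).

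**Figure D2:**
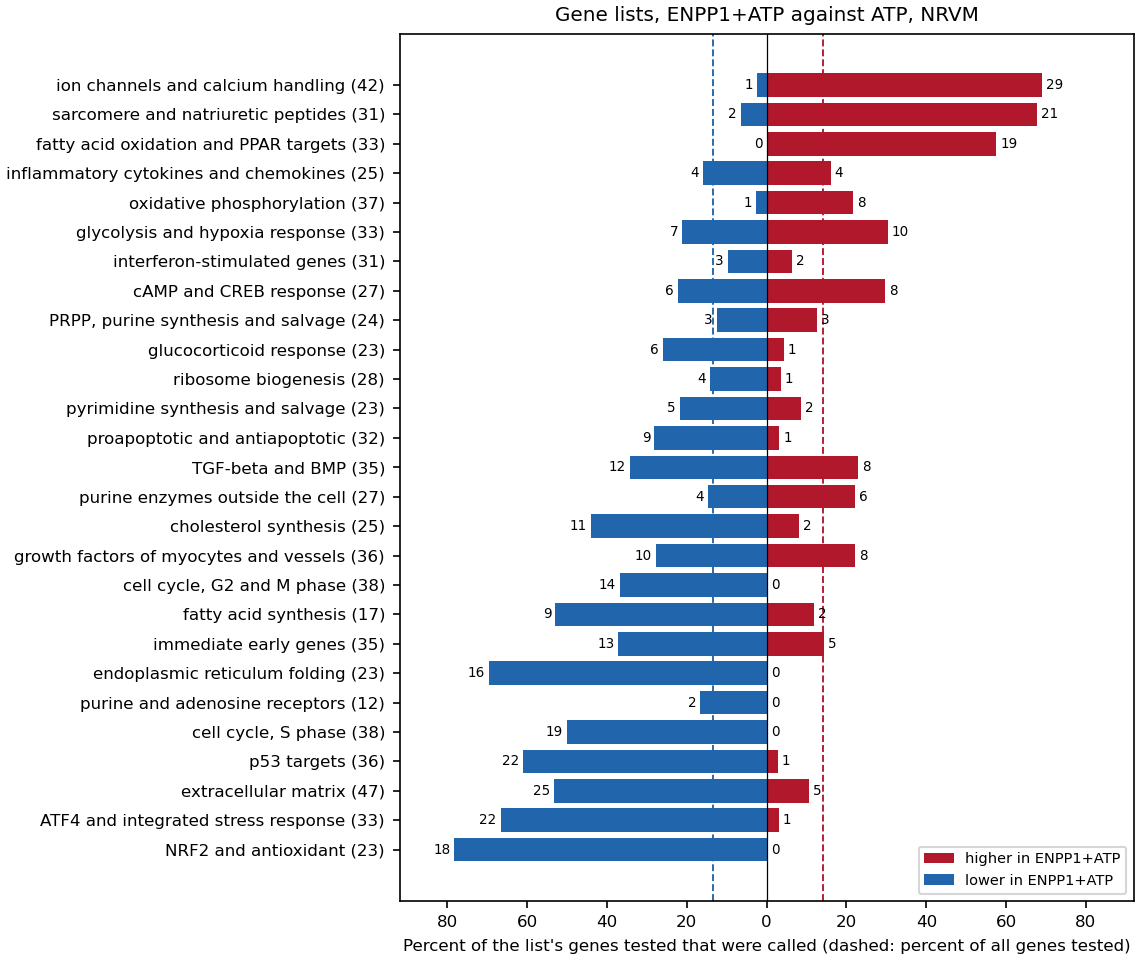
Bars give the percentage of the tested genes of each of 27 lists that were called higher (red, right) or lower (blue, left) in ENPP1+ATP against ATP NRVM, with the number tested in parentheses, the number called at the bar's end, and dashed lines at 14.1% and 13.5%, the percentages over all genes tested. The longest red bars are ion channels and calcium handling (29 of 42) and sarcomere genes (21 of 31), and the longest blue bar is NRF2 and antioxidant genes (18 of 23).

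Genes for membrane excitability and calcium cycling were higher in ENPP1+ATP than in ATP medium. Of 42 tested genes, 29 rose, against 14.1% of all genes tested, and 1 fell, with a median log2 fold change of 0.41. Slc8a1, the sodium-calcium exchanger, was at 275, 272, and 252 CPM in the ATP libraries and 485, 504, and 481 CPM in the ENPP1+ATP libraries. It rose 1.84-fold with no overlap (log2 fold change 0.88 ± 0.044 (SE), adjusted p = 5.00e-20). Cacna1c, the pore of the L-type calcium channel, went from 58.5, 57.7, and 49.9 CPM to 113, 112, and 109 CPM (log2 fold change 1.01 ± 0.054 (SE), adjusted p = 1.25e-18). Atp2a2, the calcium pump of the sarcoplasmic reticulum, went from 2115, 1874, and 1888 CPM to 3272, 3365, and 3097 CPM (log2 fold change 0.73 ± 0.045 (SE), adjusted p = 1.02e-15). Gja1, the gap junction protein connexin 43, rose as well (log2 fold change 0.55 ± 0.038 (SE), adjusted p = 1.88e-15). In each of these 4 genes every ENPP1+ATP library was above every ATP library. Kcnd3, a channel of the transient outward potassium current named after its values were seen, was the gene that fell, from 11.5, 11.6, and 10.5 CPM to 7.47, 7.28, and 9.31 CPM (log2 fold change -0.48 ± 0.12 (SE), adjusted p = 0.00153).

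Pln and Ryr2 were picked out after their values were seen. Pln, the inhibitor of the calcium pump, had 1139, 954, and 1008 CPM under ATP, 2047, 2172, and 2069 CPM under ENPP1+ATP, and 1502 ± 52.6 CPM under vehicle (mean ± SD, n = 3). The ENPP1+ATP libraries were above both other media, and Pln rose against ATP (log2 fold change 1.02 ± 0.052 (SE), adjusted p = 6.45e-14). Ryr2, the calcium release channel, went from 435, 418, and 363 CPM to 886, 970.5, and 827 CPM (log2 fold change 1.14 ± 0.098 (SE), adjusted p = 5.14e-06).

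Sarcomere and natriuretic peptide genes followed the same direction. Of 31 tested, 21 rose, against 14.1% of all genes tested, and 2 fell, with a median log2 fold change of 0.32. Besides Actc1, the stress-responsive Z-disc and nuclear protein gene Ankrd1 went from 1556, 1442, and 1511 CPM to 2648, 2530.4, and 2760.0 CPM (log2 fold change 0.82 ± 0.040 (SE), adjusted p = 3.54e-20). The Z-disc gene Ldb3 went from 596, 552, and 561 CPM to 949.7, 931, and 911 CPM (log2 fold change 0.71 ± 0.039 (SE), adjusted p = 1.25e-18), and the M-band gene Myom1 rose too (log2 fold change 0.69 ± 0.043 (SE), adjusted p = 5.77e-17). All of these stayed below their vehicle means, which were 4165 ± 138 CPM for Ankrd1, 1148 ± 11.6 CPM for Ldb3, and 627 ± 22.4 CPM for Myom1 (± SD, n = 3). The falls, named after their values were seen, were in Des, the intermediate filament protein desmin (-0.12), and Myoz2, a Z-disc protein (-0.21, log2 fold changes), and Des was not called without ATP replicate 1 or ENPP1+ATP replicate 2 (adjusted p = 0.0621 to 0.0681).

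Both myosin heavy chain genes and both natriuretic peptide genes, chosen after their values were seen, were among the rises. Myh6, the α heavy chain, went from 1693, 1747, and 1550.1 CPM to 2915, 2957, and 2786 CPM (log2 fold change 0.80 ± 0.070 (SE), adjusted p = 8.11e-07), and Myh7, the β heavy chain, went from 7362, 7094, and 6473 CPM to 10620.0, 11177, and 10476 CPM (log2 fold change 0.62 ± 0.063 (SE), adjusted p = 1.65e-06). Every ENPP1+ATP library exceeded every ATP library at both. The vehicle means were 1705 ± 63.2 CPM for Myh6 and 14353 ± 686 CPM for Myh7 (± SD, n = 3), so the ENPP1+ATP level stood above vehicle for Myh6 and between ATP and vehicle for Myh7, differences from vehicle that were not tested. Nppa (log2 fold change 0.24 ± 0.039 (SE), adjusted p = 4.25e-06) and Nppb (log2 fold change 0.61 ± 0.094 (SE), adjusted p = 5.49e-04) also rose. The 9 cardiomyocyte marker genes are sarcomere, natriuretic peptide, and calcium genes, all of them members of these lists, so their level is no separate measure. Their summed level was 15913 to 16932 CPM in the ATP libraries, 20453 to 21186 CPM in the ENPP1+ATP libraries, and 21973 to 22820.5 CPM in the vehicle libraries, with 6 of 9 markers higher and 0 lower, beside 14.1% and 13.5% of all genes tested. The part of myocyte number in the contractile and channel genes was not tested.

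**Figure D3:**
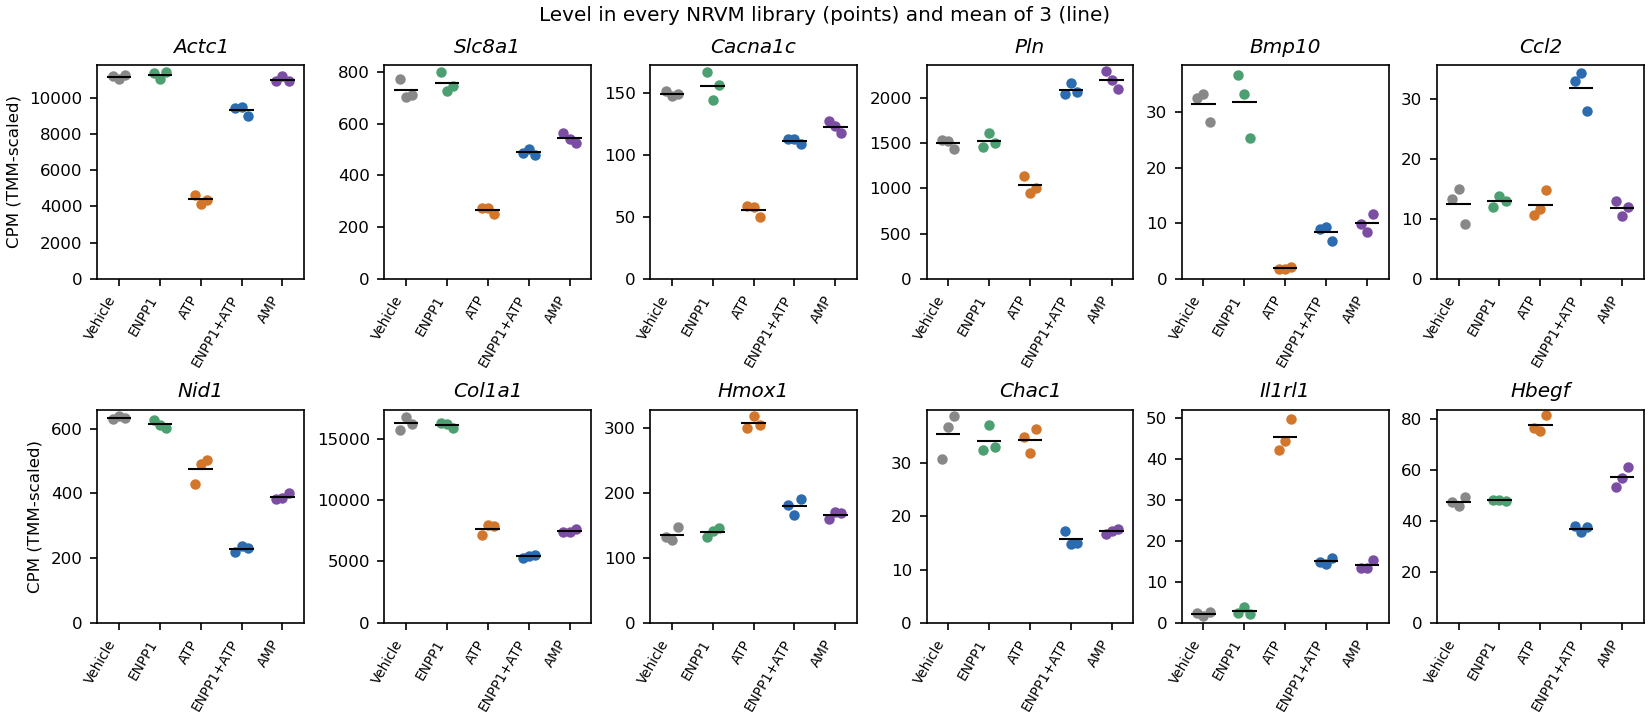
Points give the level of 12 genes, some chosen after their values were seen, in each of the 15 NRVM libraries (y axis, scaled CPM) by medium (x axis), and lines the mean of the 3 libraries of a medium. The ENPP1+ATP libraries lie wholly above the ATP libraries for the top row, Actc1 to Ccl2, and wholly below them for the bottom row, Nid1 to Hbegf.

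Energy metabolism genes rose in part. Of 33 tested genes of fatty acid oxidation and PPAR targets, 19 rose, against 14.1% of all genes tested, and 0 fell at the same threshold (edgeR), with a median log2 fold change of 0.22. Cpt1b, the muscle carnitine palmitoyltransferase that lets fatty acids into mitochondria, went from 229, 214, and 211 CPM to 301, 271, and 292 CPM (log2 fold change 0.40 ± 0.049 (SE), adjusted p = 3.40e-08). Etfdh, which passes electrons from fatty acid oxidation to the respiratory chain, went from 109.9, 100.3, and 102 CPM to 139.7, 147, and 146 CPM (log2 fold change 0.47 ± 0.046 (SE), adjusted p = 3.01e-11). The ranges were apart for both, and Cpt2 (0.45) and Fabp3 (0.37, log2 fold changes) also rose. Of 37 tested nuclear genes of oxidative phosphorylation, 8 rose and 1 fell, beside 14.1% and 13.5% of all genes tested, with a median of 0.034. With library totals left unscaled 5 of these were higher and 5 lower, and without ATP replicate 2 the higher genes numbered 5. Sdhc (0.27), Sdhd (0.21), Ndufs3 (0.26), and Cyc1 (0.22) were the 4 with the smallest p-values, all higher.

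Of 33 tested glycolysis and hypoxia-response genes, 10 rose and 7 fell, beside 14.1% and 13.5% of all genes tested, with a median of 0.0012 on the log2 scale. Slc2a4, the insulin-responsive glucose transporter, went from 57.0, 53.3, and 46.0 CPM to 82.3, 72.5, and 82.6 CPM (log2 fold change 0.60 ± 0.064 (SE), adjusted p = 2.55e-09). The glycolytic genes Aldoc (0.76) and Hk1 (0.37) rose, and P4ha1, a collagen prolyl hydroxylase, fell (-0.60 ± 0.044, SE). Lipid synthesis genes were lower, with 9 of 17 fatty acid synthesis genes falling and 2 rising, and 11 of 25 cholesterol synthesis genes falling and 2 rising, beside the same shares. Fasn, the fatty acid synthase, went from 1145, 1199, and 1149 CPM to 746, 737, and 808 CPM (log2 fold change -0.61 ± 0.041 (SE), adjusted p = 9.03e-16). Acly (-0.46), Me1 (-0.46), Fads2 (-0.43), and Dhcr7 (-0.33) were among the other genes with small p-values in these lists, each lower. The medians were -0.14 for fatty acid synthesis and -0.088 for cholesterol synthesis.

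Matrix genes were mostly lower. Of 47 tested extracellular matrix genes, 25 fell, against 13.5% of all genes tested, and 5 rose, with a median log2 fold change of -0.27. Col1a1, the α1 chain of type I collagen, had 7146, 7928, and 7896 CPM under ATP and 5302, 5422, and 5526 CPM under ENPP1+ATP. It fell with no overlap (log2 fold change -0.50 ± 0.038 (SE), adjusted p = 4.41e-14), and both media were below the vehicle mean of 16226 ± 531 CPM (± SD, n = 3). Col12a1, a fibril-associated collagen, went from 212, 261, and 249 CPM to 125, 132, and 136 CPM (log2 fold change -0.88 ± 0.052 (SE), adjusted p = 4.82e-15). The basement membrane collagen Col4a1 (-0.52 ± 0.040) and the collagen cross-linking enzyme gene Loxl2 (-0.70 ± 0.053) fell as well, with log2 fold changes ± SE. The 5 matrix genes that rose, named after their values were seen, were Has2, a hyaluronan synthase (1.17), Mmp14, a membrane-bound matrix protease (0.56), Dcn, the proteoglycan decorin (0.43), Timp3, a protease inhibitor (0.35), and Postn, the matricellular protein periostin (0.27). The rise of Dcn was not called without ATP replicate 2, ENPP1+ATP replicate 1, or ENPP1+ATP replicate 3 (adjusted p = 0.0669 to 0.0911).

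The fibroblast marker list did not move in 1 direction. Its summed level, which Col1a1 and Col3a1 dominate, was 10393 to 11740.0 CPM in the ATP libraries and 8305 to 8765 CPM in the ENPP1+ATP libraries, against 24799 to 26187 CPM under vehicle, while 4 of its 9 tested genes rose and 3 fell, beside 14.1% and 13.5% of all genes tested. No fibroblast marker was at 0 in all 6 libraries, and the part of fibroblast number in the matrix genes was not tested.

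TGF-β and BMP genes changed in both directions, with 8 of 35 higher and 12 lower, beside 14.1% and 13.5% of all genes tested, and a median of -0.074. Inhba, the activin A subunit, went from 58.5, 56.7, and 63.9 CPM to 30.9, 32.8, and 29.7 CPM (log2 fold change -0.94 ± 0.076 (SE), adjusted p = 1.96e-12), while Tgfbr3, the betaglycan co-receptor, went from 45.4, 39.9, and 40.5 CPM to 67.7, 68.7, and 62.0 CPM (log2 fold change 0.66 ± 0.061 (SE), adjusted p = 8.60e-12). Inhba was apart downward and Tgfbr3 apart upward. Without ATP replicate 1, 5 of the 8 rises were called.

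Growth factor genes did so too, with 8 of 36 higher and 10 lower, beside the same 14.1% and 13.5%, and a median of -0.10. Hbegf, a ligand of EGF receptors, had 76.6, 75.5, and 81.6 CPM under ATP and 38.0, 35.6, and 37.7 CPM under ENPP1+ATP. It fell with no overlap (log2 fold change -1.07 ± 0.059 (SE), adjusted p = 1.25e-18), to below the vehicle mean of 47.6 ± 1.87 CPM (± SD, n = 3). Tgfa, another EGF receptor ligand, went from 18.7, 21.9, and 21.7 CPM to 12.8, 10.5, and 10.3 CPM (log2 fold change -0.90 ± 0.11 (SE), adjusted p = 1.95e-08). Vegfb, a vascular growth factor of muscle, and Fgf1, a fibroblast growth factor, rose, with log2 fold changes of 0.38 ± 0.046 and 0.40 ± 0.054 (± SE).

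Genes of inflammatory signalling showed no common direction. Of 25 tested cytokine and chemokine genes 4 rose and 4 fell, which is near the 14.1% and 13.5% of all genes tested, and 18 of the 46 genes of the list, Il6, Il1b, and Cxcl2 among them, were too low to test. Beyond Ccl2 and Ccl7, Ptgs2, the inducible cyclooxygenase, went from 6.74, 11.4, and 9.46 CPM to 13.5, 15.5, and 13.7 CPM (log2 fold change 0.62 ± 0.15 (SE), adjusted p = 0.00127), and Tnfaip3, an inhibitor of NF-κB, rose (0.45 on the log2 scale). Icam1, a leukocyte adhesion protein, went from 72.7, 77.8, and 91.3 CPM to 37.8, 42.2, and 39.9 CPM (log2 fold change -1.01 ± 0.074 (SE), adjusted p = 1.23e-12). Il33, the ligand of Il1rl1, went from 3.21, 3.15, and 3.15 CPM to 1.06, 1.92, and 2.52 CPM (log2 fold change -0.78 ± 0.27 (SE), adjusted p = 0.0247), and Lif (-0.58) and Cxcl16 (-0.37) also fell. Lif was not called without ENPP1+ATP replicate 3 (adjusted p = 0.0798), and Cxcl16 was not called without ENPP1+ATP replicate 3 (adjusted p = 0.0819). The call of Il33 ended by DESeq2 or without ATP replicate 1, ATP replicate 2, ATP replicate 3, ENPP1+ATP replicate 1, or ENPP1+ATP replicate 2 (adjusted p = 0.0544 to 0.203), and that of Tnfaip3 by DESeq2, with unscaled totals, or without ATP replicate 1, ATP replicate 2, ATP replicate 3, ENPP1+ATP replicate 1, or ENPP1+ATP replicate 2 (adjusted p = 0.0511 to 0.159). The summed level of 10 macrophage and leukocyte markers was low in both media, at 21.5 to 24.2 CPM under ATP and 12.8 to 16.3 CPM under ENPP1+ATP, with 3 of 6 tested markers lower and none at 0 in all 6 libraries.

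Of 31 interferon-stimulated genes tested 2 were higher, Bst2 (0.76) among them, and 3 lower (Tap1 -0.55, Ifit2 -0.68, Psmb9 -0.67), beside 14.1% higher and 13.5% lower over all genes tested. Bst2 was not called without ENPP1+ATP replicate 1 (adjusted p = 0.0527), nor was Psmb9 by DESeq2 or without ATP replicate 3 or ENPP1+ATP replicate 1 (adjusted p = 0.0543 to 0.082). Immediate early genes leaned lower, with 13 of 35 falling and 5 rising beside those shares and a median of -0.15. Btg2, an antiproliferative gene, went from 114, 114, and 122 CPM to 82.2, 84.6, and 85.2 CPM (log2 fold change -0.47 ± 0.051 (SE), adjusted p = 6.70e-10), and the transcription factor genes Klf4 (-0.33) and Maff (-0.66) fell with Fosl1. Of 27 tested genes of the cAMP and CREB response, 8 rose and 6 fell, beside the same shares. Pde3a, a phosphodiesterase that breaks down cAMP in the heart, went from 34.6, 34.7, and 33.1 CPM to 54.4, 59.5, and 49.3 CPM (log2 fold change 0.67 ± 0.070 (SE), adjusted p = 3.48e-10), and Pde4d (0.38), Irs2 (0.35), and Ppargc1a, the coactivator of mitochondrial genes (0.38), rose. Without ATP replicate 3 or ENPP1+ATP replicate 2, 3 of the 6 falls in that list were called. In the glucocorticoid response list 1 of 23 rose and 6 fell beside the same shares, with the cardiac transcription factor gene Klf15 the rise (0.39) and Sult1a1 (-1.17), Map3k6 (-0.60), Errfi1 (-0.40), Cdkn1a (-0.30), Per1 (-0.25), and Ddit4 (-0.22) the falls. Rises in that list numbered 3 without ATP replicate 3 and 2 without ENPP1+ATP replicate 3. Among the falls, Ddit4 was not called without ENPP1+ATP replicate 1 (adjusted p = 0.0736), Sult1a1 without ATP replicate 2 or ENPP1+ATP replicate 2 (adjusted p = 0.057 to 0.157), or Per1 by DESeq2 or without ATP replicate 2, ATP replicate 3, ENPP1+ATP replicate 2, or ENPP1+ATP replicate 3 (adjusted p = 0.057 to 0.135).

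Stress-response genes were lower in ENPP1+ATP medium. Of 23 tested NRF2 and antioxidant genes, 18 fell, against 13.5% of all genes tested, and 0 rose at the same threshold (edgeR), with a median log2 fold change of -0.28. Hmox1, the inducible heme oxygenase, was at 301, 319, and 304 CPM under ATP and 182, 166, and 191 CPM under ENPP1+ATP. It fell with no overlap (log2 fold change -0.78 ± 0.051 (SE), adjusted p = 4.94e-14), and the ENPP1+ATP libraries remained above the vehicle mean of 136 ± 10.5 CPM (± SD, n = 3). Tkt, a transketolase of the pentose phosphate pathway, went from 315, 318, and 330.4 CPM to 212, 203, and 213 CPM (log2 fold change -0.62 ± 0.041 (SE), adjusted p = 6.44e-16). Osgin1, an oxidative stress-induced gene, went from 36.2, 38.5, and 35.8 CPM to 22.7, 21.0, and 22.0 CPM (log2 fold change -0.75 ± 0.086 (SE), adjusted p = 2.01e-09). Nqo1, a quinone reductase picked out after its values were seen, went from 212, 221, and 245 CPM to 141, 139, and 168 CPM (log2 fold change -0.60 ± 0.060 (SE), adjusted p = 4.56e-08). Osgin1 and Nqo1 were lower still under vehicle, at 11.3 ± 1.75 CPM and 80.2 ± 3.07 CPM (mean ± SD, n = 3).

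Of 33 tested genes of ATF4 and the integrated stress response, 22 fell, against 13.5% of all genes tested, and 1 rose, with a median of -0.27. Atf4, the transcription factor of this response, went from 398, 387, and 407 CPM to 286, 286, and 296 CPM (log2 fold change -0.46 ± 0.039 (SE), adjusted p = 7.12e-13). Chac1, an ATF4 target that degrades glutathione, went from 34.9, 31.8, and 36.4 CPM to 17.3, 14.8, and 15.1 CPM (log2 fold change -1.13 ± 0.088 (SE), adjusted p = 5.42e-14). The vehicle mean of Chac1 was 35.4 ± 4.15 CPM (± SD, n = 3), so the ENPP1+ATP libraries were the ones that stood apart, at a level like the 17.1 ± 0.543 CPM under AMP, a likeness that was not tested. Slc3a2, the heavy chain of several amino acid transporters, fell (log2 fold change -0.47 ± 0.042 (SE), adjusted p = 3.01e-12), and Slc38a2, a neutral amino acid transporter gene named after its value was seen, was the rise (0.16 ± 0.046). This rise was not called with unscaled totals or without ATP replicate 2 or ENPP1+ATP replicate 2 (adjusted p = 0.0629 to 0.0701). Genes of folding in the endoplasmic reticulum fell as well, 16 of 23 with 0 rising at the same threshold (edgeR) and a median of -0.22. Hsp90b1, a chaperone of the reticulum, went from 638, 679.9, and 678 CPM to 460.0, 466, and 458 CPM (log2 fold change -0.53 ± 0.038 (SE), adjusted p = 4.06e-15), and Calr (-0.28), Pdia4 (-0.36), and Pdia6 (-0.28) fell.

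Targets of p53 were lower. Of 36 tested, 22 fell, against 13.5% of all genes tested, and 1 rose, with a median log2 fold change of -0.26. Pmaip1, a BH3-only apoptosis gene, was at 40.7, 40.8, and 44.4 CPM in the ATP libraries and 23.6, 22.7, and 19.6 CPM in the ENPP1+ATP libraries. It fell with no overlap (log2 fold change -0.93 ± 0.077 (SE), adjusted p = 2.88e-13). Tp53inp1, a p53-induced nuclear protein, went from 122, 114, and 119 CPM to 77.1, 75.4, and 77.5 CPM (log2 fold change -0.63 ± 0.054 (SE), adjusted p = 9.50e-13), and its vehicle mean was lower at 32.0 ± 0.857 CPM (± SD, n = 3). Sesn2, a stress-induced sestrin, went from 179, 174, and 177 CPM to 130.2, 126, and 119 CPM (log2 fold change -0.50 ± 0.043 (SE), adjusted p = 1.56e-12). Sesn2 is also counted in the list of the integrated stress response. Its relative Sesn1, named after its value was seen, was the rise (0.22 ± 0.066), which was not called without ATP replicate 2 (adjusted p = 0.092). Cdkn1a, the cyclin-dependent kinase inhibitor p21, went from 604, 589.6, and 632 CPM to 498, 473, and 516 CPM (log2 fold change -0.30 ± 0.040 (SE), adjusted p = 1.08e-07). Mdm2, the ubiquitin ligase of p53, was chosen after its values were seen and went from 199, 193, and 206 CPM to 154, 150.5, and 152 CPM (log2 fold change -0.39 ± 0.044 (SE), adjusted p = 1.53e-09). Both Cdkn1a and Mdm2 stayed above their vehicle means of 241 ± 1.31 CPM and 74.7 ± 3.33 CPM (± SD, n = 3). Of 32 tested proapoptotic and antiapoptotic genes 9 fell and 1 rose beside 13.5% and 14.1% of all genes tested, with the proapoptotic Bax (-0.27) and the antiapoptotic Bcl2l1 (-0.39) falling and the proapoptotic Bcl2l11 rising (0.38).

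Cell cycle genes were lower too. Of 38 tested S phase genes 19 fell and 0 rose, and of 38 tested G2 and M phase genes 14 fell and 0 rose at the same threshold (edgeR), against 13.5% lower over all genes tested, with medians of -0.26 and -0.13. Mcm3, a subunit of the replicative helicase, went from 74.2, 75.7, and 75.8 CPM to 53.4, 51.0, and 51.2 CPM (log2 fold change -0.54 ± 0.054 (SE), adjusted p = 9.84e-11), and Mcm5 (-0.41), Mcm6 (-0.40), and Pcna, the replication clamp (-0.32), fell. Anln, an actin-binding protein of cytokinesis, went from 40.8, 48.0, and 47.2 CPM to 28.8, 31.6, and 31.2 CPM (log2 fold change -0.57 ± 0.071 (SE), adjusted p = 1.92e-08), and Kif23, a motor of the midbody (-0.46), Ncapd2, a condensin subunit (-0.39), and Nuf2, of the kinetochore (-0.45), fell. The G2 and M phase count of 14 moved with the tool and with single libraries. It was 7 by DESeq2, 8 without ATP replicate 2, 7 without ENPP1+ATP replicate 1, and 9 without ENPP1+ATP replicate 2 or ENPP1+ATP replicate 3. Which cells of the culture were cycling was not tested.

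Genes of nucleotide synthesis showed no common direction, beside 14.1% higher and 13.5% lower over all genes tested. Of 24 tested genes of phosphoribosyl pyrophosphate, purine synthesis, and purine salvage, 3 rose and 3 fell, both near those shares, with a median of -0.015. Of 23 pyrimidine genes 2 rose, below that share, and 5 fell, with a median of -0.053. Gmpr, the GMP reductase, went from 139.9, 134, and 126 CPM to 185, 184, and 179 CPM (log2 fold change 0.46 ± 0.048 (SE), adjusted p = 2.83e-10). Adssl1, the muscle adenylosuccinate synthase on the path to AMP, went from 63.0, 60.7, and 57.4 CPM to 86.2, 79.4, and 82.3 CPM (log2 fold change 0.45 ± 0.056 (SE), adjusted p = 1.75e-08), while Ampd2, an AMP deaminase, went from 69.9, 70.8, and 65.5 CPM to 50.4, 53.3, and 48.7 CPM (log2 fold change -0.44 ± 0.057 (SE), adjusted p = 4.43e-08). The 3 genes were apart between the media, the first 2 upward. Adsl (0.19) rose, and Prps1, a phosphoribosyl pyrophosphate synthetase (-0.26), and Impdh1 (-0.29) fell. Upp1, the uridine phosphorylase, went from 21.1, 18.0, and 19.7 CPM to 32.4, 27.6, and 32.1 CPM (log2 fold change 0.65 ± 0.086 (SE), adjusted p = 6.74e-08), and Tk1 rose (0.29). Cad, the enzyme of the first steps of pyrimidine synthesis (-0.24), Dctd (-0.53), Dck (-0.51), Nme1 (-0.22), and Dtymk (-0.21) fell. Nme1 was not called without ATP replicate 1 or ENPP1+ATP replicate 2 (adjusted p = 0.0775 to 0.131), and Dtymk was not called without ATP replicate 2, ENPP1+ATP replicate 1, or ENPP1+ATP replicate 2 (adjusted p = 0.0682 to 0.121). With ATP replicate 2 left out 5 purine synthesis genes were lower, with unscaled totals 7 were, and without ENPP1+ATP replicate 2 the lower pyrimidine genes numbered 3. Of 28 ribosome biogenesis genes 1 rose (Polr1c, 0.29) and 4 fell, near the 13.5% of all genes (Wdr43 -0.23, Nop16 -0.19, Dkc1 -0.16, Nop56 -0.16). Nop56 was not called without ATP replicate 2, ATP replicate 3, ENPP1+ATP replicate 1, or ENPP1+ATP replicate 2 (adjusted p = 0.0642 to 0.121), nor was Nop16 by DESeq2, without the filter on low counts, or with any 1 of the 6 libraries left out (adjusted p = 0.0515 to 0.163). The falls numbered 10 with unscaled totals and 2 without ATP replicate 2, ATP replicate 3, ENPP1+ATP replicate 1, or ENPP1+ATP replicate 2, and the rises numbered 2 without ENPP1+ATP replicate 1 or ENPP1+ATP replicate 2.

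**Figure D4:**
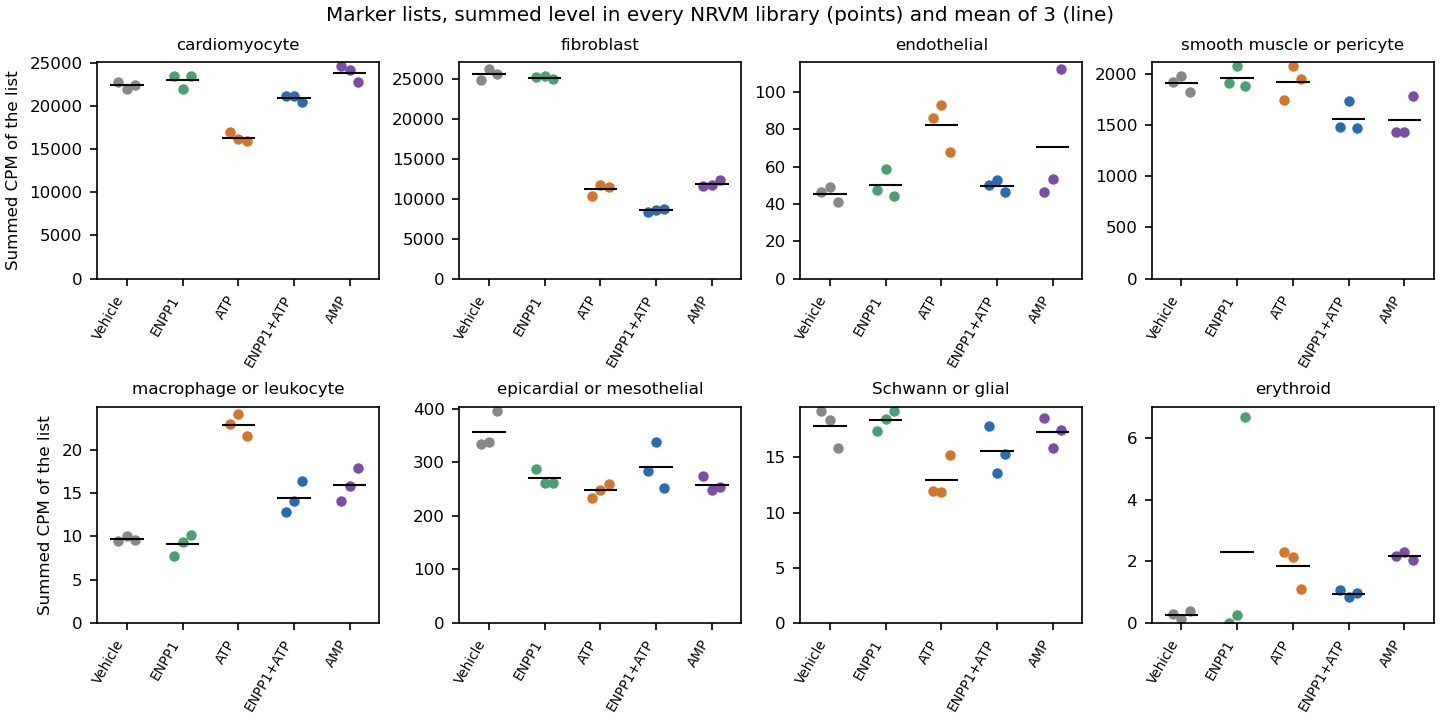
Points give the summed level of each of 8 marker lists in each of the 15 NRVM libraries (y axis, summed CPM) by medium (x axis), and lines the mean of 3 libraries. The ENPP1+ATP libraries lie wholly above the ATP libraries for the cardiomyocyte list and wholly below them for the fibroblast, endothelial, smooth muscle, macrophage, and erythroid lists.

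The remaining marker lists differed less or were near 0. The smooth muscle and pericyte list summed to 1747 to 2083 CPM under ATP and 1468 to 1732 CPM under ENPP1+ATP, with 1 of 10 markers higher and 2 lower, and these ranges did not overlap. Over all genes tested 14.1% were higher and 13.5% lower. The epicardial and mesothelial list summed to 234 to 259.9 CPM and 251 to 337 CPM, with 3 of 8 higher, and the Schwann and glial list to 11.9 to 15.2 CPM and 13.6 to 17.8 CPM, with 1 of 4 higher. The ranges overlapped for both, and neither list had a lower gene. The erythroid list was near 0 in both media, at 1.09 to 2.29 CPM and 0.830 to 1.06 CPM, with 1 of 2 tested markers lower.

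Whether the effect of ENPP1 differed between media made with and without ATP was tested as the difference of the 2 ENPP1 effects. At an adjusted p under 0.05 (edgeR's quasi-likelihood test) that difference was positive at 1078 genes (8.01%) and negative at 916 genes (6.8%). It shares the ATP and ENPP1+ATP libraries with the direct comparison, so the 2 are not independent. Among the genes that passed this test at a mean level of at least 2 log2 CPM, Bmp10 had the largest difference, 2.17 ± 0.24 on the log2 scale (SE, adjusted p = 2.49e-07), with an effect of 2.19 ± 0.21 with ATP and 0.02 ± 0.12 without it. Il1rl1 differed by -1.94 ± 0.23 (adjusted p = 3.44e-08), falling with ATP and standing at 0.35 ± 0.21 without it. The 2 effects start from unlike levels. Il1rl1 had a mean of 2.27 CPM under vehicle and 45.4 CPM under ATP, and Bmp10 had 31.4 and 1.83 CPM. Il1rl1 thus had little room to fall without ATP. Gpm6a (1.57 ± 0.21), Ccl7 (1.59 ± 0.27), RGD1563354 (1.54 ± 0.24), and Npr3 (1.45 ± 0.13) completed the 6 largest of these differences, with the SE after each. Among the gene lists, the difference was positive at 20 of 31 sarcomere genes and 20 of 42 channel and calcium genes. It was negative at 17 of 36 p53 targets, 17 of 33 genes of the integrated stress response, and 20 of 47 matrix genes. The nucleoside enzymes Nt5e (0.91 ± 0.24, adjusted p = 0.00819) and Adk (0.54 ± 0.098, adjusted p = 6.22e-05) passed this test as well (edgeR).

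The same pair of media was measured in the mouse cardiac fibroblasts (CFs) of the series, which were treated for 24 hours and have 2 libraries per medium. There, 3898 of 17879 genes tested rose (21.8%) and 3948 fell (22.1%). Of 10945 symbols tested in both cell types, 3204 were called in NRVM and 6219 in CFs, and 1952 in both, which is 60.9% of those called in NRVM and 31.4% of those called in CFs. Of the 1952, 788 changed in the same direction and 1164 in opposite directions. The cell types differ in species, table, and library number, and the difference between their responses was not tested.

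The p53 targets and the cell cycle genes were among the groups that went in opposite directions. Of 35 p53 targets tested in both, 17 fell in NRVM and rose in CFs, against 631 of the 10945 symbols (5.77%), and 2 changed in the same direction, with median log2 fold changes of -0.25 in NRVM and 0.54 in CFs. Pmaip1 was at 22.4 and 21.9 CPM in the ATP libraries and 76.0 and 81.4 CPM in the ENPP1+ATP libraries of the CFs (1.83 ± 0.13, SE, adjusted p = 9.07e-09, edgeR), where NRVM had -0.93 ± 0.077. The CF libraries were apart upward and the NRVM libraries downward. Btg2 (1.56 ± 0.095), Mdm2 (1.18 ± 0.067), Cdkn1a (0.90 ± 0.14), and Sesn2 (0.54 ± 0.065) likewise rose in CFs, with log2 fold changes ± SE. Of the 38 S phase genes 15, and of 37 G2 and M phase genes 14, fell in NRVM and rose in CFs, beside the same 5.77%, and none changed in the same direction. The study describes CFs immortalized with SV40 antigen as well as primary CFs, and the part of immortalization in these directions was not tested.

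**Figure D5:**
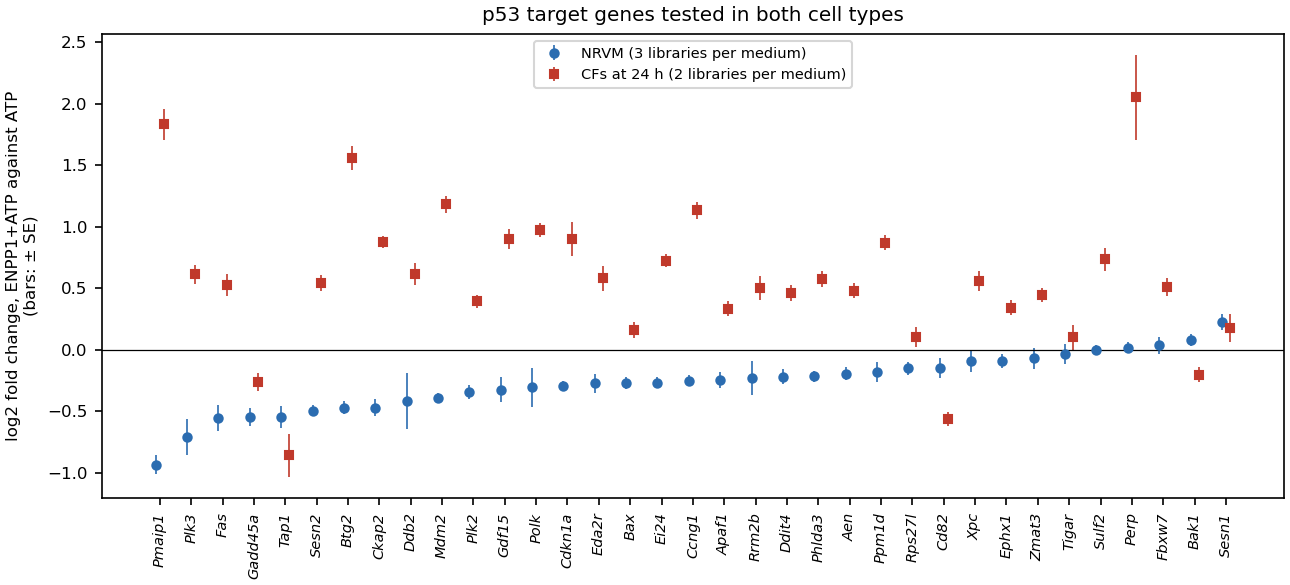
Each of 35 p53 target genes (x axis) is drawn by its log2 fold change in ENPP1+ATP against ATP (y axis) in NRVM (blue circles, 3 libraries per medium) and in CFs at 24 hours (red squares, 2 libraries per medium), with bars of ± SE. Most NRVM points lie below 0 and most CF points above it, as at Pmaip1 with -0.93 in NRVM and 1.83 in CFs.

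For genes of the integrated stress response and of the matrix, more members changed in the same direction in both cell types than in opposite directions. Of 33 genes of the integrated stress response tested in both, 16 changed in the same direction and 5 in opposite directions, and of 43 matrix genes 16 changed in the same direction and 4 in opposite directions. Of all 10945 symbols, 7.2% changed in the same direction and 10.6% in opposite directions. Atf4 was lower in CFs too, with a log2 fold change of -0.24 ± 0.065 (SE, adjusted p = 0.00371, edgeR) beside -0.46 ± 0.039 in NRVM. Col1a1 was at 3036 and 2915 CPM under ATP and 2336 and 2245 CPM under ENPP1+ATP in CFs (-0.38 ± 0.052, SE), and fell in NRVM as given above. Col4a1 (-0.41 ± 0.051) fell in CFs as well. Hbegf was 0.74 ± 0.080 in CFs (SE, adjusted p = 4.20e-08) and fell in NRVM, and Enpp1 rose in CFs (1.76 ± 0.14, adjusted p = 3.60e-10) where its NRVM change did not pass the test.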

How the data were processed

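Libraries of NRVM RNA were compared by the media in their labels. The deposited table holds whole-number counts per gene symbol for 15 NRVM libraries, and a further table the counts of 20 CF libraries. The submitters' processing notes name STAR 2.5.3a and the builds rn6 and mm10, with no role stated for each, and the counting tool and annotation are not given in the sources used here, nor is whether strand was used, so reads of overlapping genes or near-identical copies may be split. From these counts, edgeR 4.0.16 in R 4.3.3 dropped low genes (filterByExpr, minimum count 10), scaled library totals by TMM factors (1.05 to 1.06 for ATP, 1.02 for ENPP1+ATP), and fitted 1 mean per medium over all 15 libraries by robust quasi-likelihood. A gene was called at a Benjamini-Hochberg adjusted p under 0.05 over all 13461 genes tested of 20158, and 6697 were too low to test. The common biological coefficient of variation was 0.0499. CPM values use the TMM-scaled totals, and the SE of a log2 fold change was taken from the quasi-likelihood F statistic. CFs were fitted the same way over their 20 libraries. The test was checked on simulated counts. Far fewer genes changed in them than were called here, with rises and falls equal in number, so changes this widespread were not covered by that check.

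The comparison, the 27 gene lists, and the 8 marker lists were chosen with earlier results of these data known. The 814 tested entries of the gene lists are 767 distinct genes, so the counts of different lists are not independent. Genes were named by a fixed rule: the 15 largest rises and falls among called genes with a mean of at least 2 log2 CPM and libraries apart, all tested purine enzymes and receptors, the 4 smallest p-values of each other list and every called gene of lists with at most 8, the 6 largest called differences of ENPP1 effects at that level, and the 5 smallest p-values. A few genes that the rule names are not reported here. Names outside it are marked as chosen after their values were seen. Alternatives were DESeq2 1.42.0, its size factors, no filter and a stricter one (CPM of 1 and 50 counts), a replicate block, the 6 libraries alone, each library left out, and, added after seeing the data, unscaled totals and the fit without AMP replicate 3. No 2 libraries of a medium agreed within sampling noise. No rat sequence was used here.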

Additional observations from a re-analysis of the deposited data

Results flagged for a closer look

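The effect of ENPP1 differed between media made with and without ATP at 1994 genes by a test of the difference itself. Among the genes that passed this test with a mean of at least 2 log2 CPM, the largest differences on the log2 scale were 2.17 at Bmp10, -1.94 at Il1rl1, 1.59 at Ccl7, 1.57 at Gpm6a, 1.54 at RGD1563354, and 1.45 at Npr3. Among the genes with the largest changes in NRVM, 22 of 30 were tested in CFs and 10 were called there. Of the 10, 3 changed in the same direction (Mbd5, Col11a1, and Chac1) and 7 in the other direction. Beside this, 1164 of the 1952 symbols called in both cell types changed in opposite directions. The libraries of the 7 were apart in CFs too, but the share of all symbols apart there is not given here. In NRVM the naming rule required libraries apart. The CF log2 fold changes of the 7 were -1.16 for Ccl7, -2.98 for Tenm4, -0.50 for Ccl2, -1.21 for Clmp, 0.96 for Fosl1, 0.56 for Sgms2, and 0.86 for Ltbp2, a difference between the cell types that was not tested. No medium has more than 3 NRVM libraries, so no single library was tested as standing apart from its group.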

How the results depend on the processing

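The count of 3708 called genes was 3184 by DESeq2, 3735 with DESeq2's size factors, 3718 without a filter on low counts, 3674 with a stricter filter, 3916 with the 6 libraries alone, 4055 with unscaled totals, and 3000 to 3383 with 1 of the 6 libraries left out, and in each of these every gene that was also called in the main setting kept its direction. Unscaled totals moved the median log2 fold change of all genes to -0.06 and the share of higher genes from 51.2% to 35.6%. With a replicate block 3750 genes were called, 3660 of them shared, and it changed no other count of calls of the 3 NRVM and CF comparisons by over 1.5 times. The deviations of same-numbered ATP and ENPP1+ATP libraries correlated at 0.03, 0.08, and 0.05, and those of differently numbered ones at -0.08 to 0.04. Every library but ATP replicate 1 correlated best with its own number. Whether replicate numbers pair the samples cannot be told from such weak correlations of deviations from means of 3 libraries. ENPP1 against vehicle gave 0 calls in the main setting, 1 lower gene by DESeq2, and 14 without the filter, 1 higher and 13 lower. All 420 alternative values of the 30 largest changes and all 102 of the 6 largest differences between ENPP1 effects kept their direction and side of the threshold, and of 133 called list genes named in the text 109 kept their calls in every setting and 24 lost them in 1 or more, all 24 with 1 library left out. Adora1, not called, ranged from -0.068 to 0.058 with 1 library left out and changed sign without ATP replicate 1, ENPP1+ATP replicate 1, or ENPP1+ATP replicate 3. Of the list counts, 53 of 756 moved by over 1.5 times, most of them counts of a few genes. At the counts reached, 6697 genes were too low to test. The 3 libraries per medium, and 2 in CFs, limit every test, and separate cultures are not recorded.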

Other observations

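Mitochondrially encoded genes were taken by symbol after the data were seen. Of 13 tested, 11 rose in ENPP1+ATP against ATP NRVM and 0 fell (edgeR), against 14.1% higher and 13.5% lower over all genes tested, with a median log2 fold change of 0.43. Mt-atp6, a subunit of ATP synthase, had 5750.4, 5147, and 5627 CPM under ATP and 8071, 7977, and 8018 CPM under ENPP1+ATP (log2 fold change 0.54 ± 0.039 (SE), adjusted p = 6.01e-15), and Mt-co3, a subunit of cytochrome oxidase, had 8709.9, 7824, and 8191 CPM and 11655, 11389, and 11299.5 CPM (log2 fold change 0.47 ± 0.039 (SE), adjusted p = 3.71e-13). The ranges were apart for both. Mt-atp8 (1.48) and Mt-nd6 (0.30) did not pass the test.

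Genes of the translation machinery, taken by symbol after the data were seen, leaned lower. Of 75 tested cytosolic ribosomal protein genes, 18 fell and 0 rose (edgeR), against 13.5% lower and 14.1% higher over all genes tested, with a median of -0.093 on the log2 scale, and of 18 tested aminoacyl-tRNA ligase genes 11 fell and 0 rose, with a median of -0.16. The ligase genes Cars, Gars, and Sars, all among the falls, were already counted in the list of the integrated stress response. Most of the ribosomal protein genes also had a negative log2 fold change for ENPP1 against vehicle, a few a positive one, and none was called there. The difference of the 2 ENPP1 effects, with and without ATP, passed its test at 0 of these ribosomal protein genes and at 3 ligase genes, where it was negative. Nars, which charges the asparagine tRNA, went from 235, 231, and 229 CPM to 181, 178, and 193 CPM (log2 fold change -0.33 ± 0.042 (SE), adjusted p = 3.12e-08), and Gars, which charges the glycine tRNA, went from 234, 231, and 231 CPM to 195, 177, and 200.5 CPM (log2 fold change -0.28 ± 0.042 (SE), adjusted p = 9.66e-07).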
